A study of Homo sapiens with 8 samples.

Results

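The insulin-like growth factor (IGF) axis was taken as 10 genes, matched by symbol in the deposited expression tables: the ligands IGF1 and IGF2, the receptors IGF1R and IGF2R, and the binding proteins IGFBP2, IGFBP3, IGFBP4, IGFBP5, IGFBP6 and IGFBP7. All 10 were found, each as 1 row, among 25268 gene symbols. The expression data are polyadenylated RNA of 2 human fibroblast lines, line 1 and line 2, labelled as population control fibroblasts. Each line received either siRNA targeting SUPT4H1 or control siRNA that targets no gene, in 2 replicate treatments, so that 4 SUPT4H1 siRNA samples stood against 4 control samples. All 8 samples share growth in DMEM with 10% FBS and antibiotics and transfection with Lipofectamine RNAiMAX, and no untransfected cells are among them. Each line is a single source of cells, a duration of treatment is not given in the sources used here, and the labels do not say whether replicates were separate cultures. The p-values therefore refer to the spread among these 8 samples, and that spread may be technical. The serum in the medium is itself a source of growth factors, and secreted proteins were not measured.

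IGF1 and IGF2 are secreted peptides that promote growth and survival of cells through IGF1R, a receptor tyrosine kinase that signals through IRS adaptors, PI3 kinase and AKT. IGF2R, also the receptor for mannose 6-phosphate, carries IGF2 and lysosomal enzymes to the lysosome and does not signal as a kinase. The binding proteins hold the ligands outside the cell, lengthen their half-life and limit or aid their access to IGF1R, and proteases such as PAPPA release the ligands by cutting them. Fibroblasts are known to secrete several of these binding proteins, IGFBP3 above all.

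SUPT4H1, the targeted gene, encodes SPT4, a subunit of the elongation factor DSIF. Its level was 25.6 FPKM in both control samples of line 1 and 26.2 and 28.3 FPKM in those of line 2, and 1.37, 1.43, 1.69 and 1.74 FPKM in the SUPT4H1 siRNA samples, so every library matched its label. FPKM (fragments per kilobase of transcript and library size) are levels per length. All 12 fibroblast markers examined, such as collagen VI chains, PDGFRB and decorin, reached 1 FPKM in every sample. Of the 22 markers of epithelial, endothelial, blood, pigment, muscle and fat cells examined, 1 did so, the leukocyte marker CD14, named after its values were seen, at up to 3.10 FPKM. The fibroblast markers summed to between 15800 and 16260 FPKM in control samples and between 14010 and 16280 FPKM in SUPT4H1 siRNA samples. In the comparison over both lines described below, 6 of the 12 fell and 0 rose. That is 50 and 0%, against 15 and 26.4% of all genes tested. The part of this change in the results that follow was not tested. Fewer cells of a type and less RNA per cell cannot be told apart in such bulk samples.

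The axis was dominated by binding protein transcripts. IGFBP3, on chromosome 7 (45951844-45960871 in hg19), was the most abundant or second most abundant of all 25268 symbols in each sample of line 1 and ranked 4 or 8 in line 2. Under control siRNA it stood at 3418 and 3426 FPKM in line 1 and at 2014 and 2047 FPKM in line 2. IGFBP4 (chromosome 17, 38599676-38613982), at 641 to 886 FPKM in the 4 control samples, and IGFBP5 (chromosome 2, 217536828-217560272), at 709 to 749 FPKM, came next and overlapped in level. IGFBP6 (chromosome 12, 53491436-53496128) followed at 142 to 419 FPKM and IGFBP7 (chromosome 4, 57897237-57976551) at 47.9 to 111 FPKM. Both receptors were lower in level, IGF2R (chromosome 6, 160390131-160527583) at 18.6 to 23.0 FPKM and IGF1R (chromosome 15, 99191768-99507759) at 6.48 to 8.56 FPKM. IGFBP2 (chromosome 2, 217498127-217529158), at 5.82 to 7.58 FPKM in control samples, overlapped IGF1R. The ligands IGF1 (chromosome 12, 102789645-102874378) and IGF2 (chromosome 11, 2150347-2170833) stood under 0.2 FPKM in every sample.

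**Figure D1:**
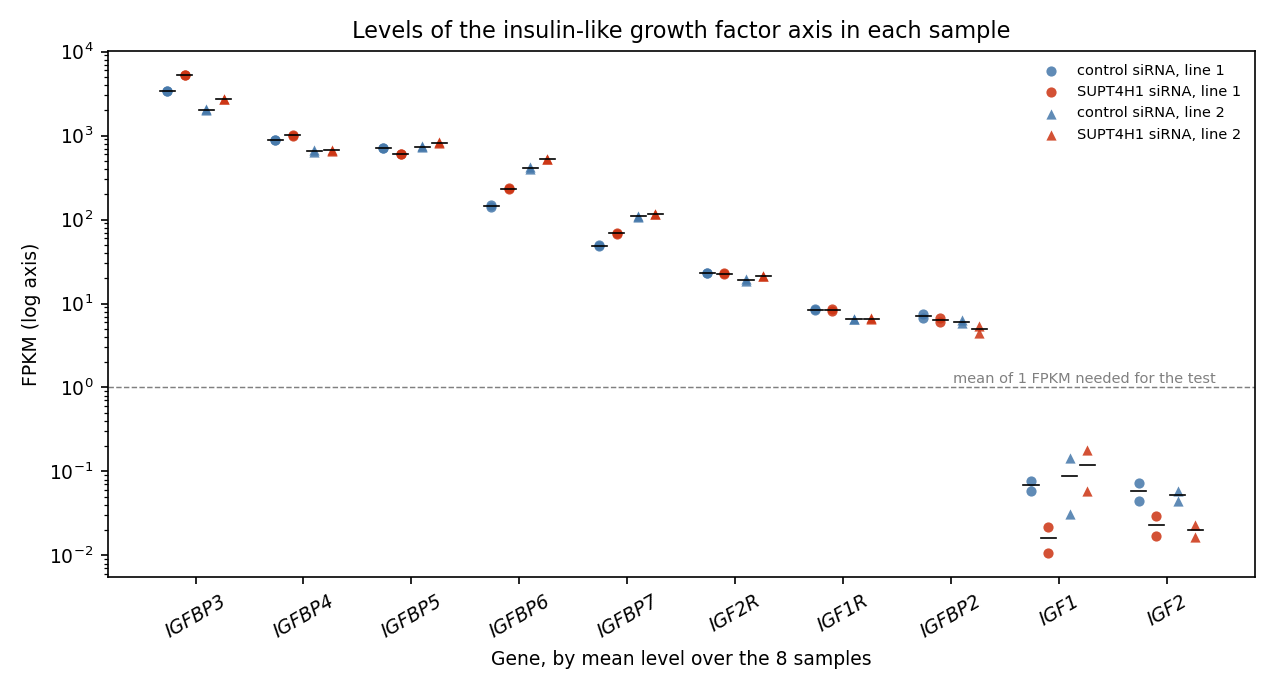
FPKM on a log axis for the 10 genes in each of the 8 samples; colour gives the siRNA, the symbol gives the line, and short black lines are means of the 2 replicates. IGFBP3 stands at 2014 FPKM or above in every sample, while IGF1 and IGF2 stand under 0.2 FPKM.

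The siRNA comparison used limma on log2(FPKM + 1) with the line as a block, over 11486 genes whose mean level was at least 1 FPKM, at an adjusted p of 0.05. Because of the added 1, changes of low genes come out too small. Of the 10 genes 8 passed this filter, and IGF1 and IGF2 did not. IGFBP3, IGFBP6 and IGFBP7 rose, IGFBP2 fell, and IGF1R, IGF2R, IGFBP4 and IGFBP5 did not pass over both lines. With this block 26.4% of all genes tested rose and 15% fell, 41.4% together, so that 3 rises and 1 fall among 8 are close to the background. The median log2 change of the 8 was 0.08, against 0.03 over all genes tested, and the median absolute change was 0.15 against 0.09. After median-ratio scaling the same 3 rises and 1 fall were called among the 8, while over all genes the share of rises among the calls went from 63.8 to 50.2%. Without the block, as the series design groups the samples, limma called 0 of the 8 (adjusted p = 0.37 to 0.994), and 0 had an unadjusted p under 0.05. In that fit 3.53% of all genes rose and 1.73% fell, 5.26% together. The lines differed in the level of most of these genes under control siRNA, as given further on.

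The ligand transcripts were at the edge of detection. IGF1 stood at 0.0777, 0.0591, 0.0313 and 0.143 FPKM in control samples and at 0.0107, 0.0215, 0.179 and 0.0589 FPKM in SUPT4H1 siRNA samples (lines 1, 1, 2 and 2 in each case), and the groups overlapped. The lower bound of the deposited interval was 0 in 6 of the 8 samples for this gene. IGF2 stood at 0.0446, 0.0720, 0.0587 and 0.0448 FPKM in control samples and at 0.0293, 0.0171, 0.0167 and 0.0230 FPKM in SUPT4H1 siRNA samples. Each SUPT4H1 siRNA value of IGF2 lay below each control value, with deposited intervals that overlapped and reached 0 in all 4 SUPT4H1 siRNA samples. With no filter on FPKM, over 18984 genes, limma gave IGF2 a log2 difference of -0.05 (adjusted p = 0.0202) and IGF1 one of -0.02 (adjusted p = 0.854). The read-through gene INS-IGF2, which overlaps IGF2, was listed at effectively 0 in every sample. H19, the imprinted noncoding RNA that neighbours IGF2 and was singled out after its values were seen, stood at 0.476, 0.425, 0.106 and 0.199 FPKM in control samples and at 0.104, 0.0678, 0.0126 and 0.0401 FPKM in SUPT4H1 siRNA samples, also under the filter. Its log2 difference was -0.29 with no filter (adjusted p = 0.0111).

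Of the receptors, IGF1R showed no detectable change. Its level was 8.33 and 8.56 FPKM under control siRNA and 8.64 and 8.16 FPKM under SUPT4H1 siRNA in line 1, and 6.60 and 6.48 against 6.69 and 6.53 FPKM in line 2. Within each line the groups overlapped. The log2 difference over both lines was 0.004 (SE 0.03, 95% interval -0.06 to 0.07, limma adjusted p = 0.932), and its sign changed with median-ratio scaling (-0.03), so it has no direction.

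IGF2R differed by line. In line 1 it stood at 23.0 and 22.9 FPKM in control samples and at 22.9 and 22.3 FPKM in SUPT4H1 siRNA samples, which did not pass (log2 difference -0.02, adjusted p = 0.657). In line 2 it rose from 19.4 and 18.6 to 21.4 and 21.2 FPKM, or by 0.16 on the log2 scale (SE 0.03, limma adjusted p = 0.00432), with no overlap between the groups. Over both lines the log2 difference was 0.07 (95% interval -0.02 to 0.15, adjusted p = 0.186). Its responses in the 2 lines differed by 0.18 on the log2 scale, which passed narrowly (adjusted p = 0.0442). That call was lost without any 1 sample other than replicate 1 of the line 2 controls (adjusted p up to 0.131), with no filter on FPKM (0.0633), after scaling (0.0718) and without the mean-variance trend (0.0786). Under SUPT4H1 siRNA the ratio of the IGF2R level to the IGF1R level was 2.65 and 2.74 in line 1 and 3.20 and 3.25 in line 2, against 2.77 and 2.68, and 2.95 and 2.87, under control siRNA.

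IGFBP3, IGFBP6, IGFBP4 and IGFBP5 are the 4 most abundant binding protein genes and did not respond alike in the 2 lines, and the 250 bases before their annotated starts are shown so that these promoters can be compared. The sequences are RefSeq's, in GRCh38.p14, and not in the hg19 of the expression tables. A window was found for 8 of the 10 genes. Capitals mark matches on either strand to TATANA, the core of the box that binds TBP, or to GGGCGG, the motif bound by Sp1. They lie at chr7:45921273-45921522 (minus strand) for IGFBP3, chr12:53097417-53097666 (plus) for IGFBP6, chr17:40443200-40443449 (plus) for IGFBP4 and chr2:216695550-216695799 (minus) for IGFBP5, each 5′ to 3′ along the gene.
IGFBP3: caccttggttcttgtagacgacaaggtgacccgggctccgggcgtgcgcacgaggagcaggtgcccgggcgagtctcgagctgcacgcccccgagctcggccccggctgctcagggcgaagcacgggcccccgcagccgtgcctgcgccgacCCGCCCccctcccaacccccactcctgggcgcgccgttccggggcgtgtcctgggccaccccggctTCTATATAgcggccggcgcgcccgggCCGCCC
IGFBP6: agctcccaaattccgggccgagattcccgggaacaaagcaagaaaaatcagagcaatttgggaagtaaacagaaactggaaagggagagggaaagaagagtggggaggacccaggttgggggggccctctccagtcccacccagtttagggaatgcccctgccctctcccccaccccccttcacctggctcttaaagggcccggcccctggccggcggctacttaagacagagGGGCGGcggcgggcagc
IGFBP4: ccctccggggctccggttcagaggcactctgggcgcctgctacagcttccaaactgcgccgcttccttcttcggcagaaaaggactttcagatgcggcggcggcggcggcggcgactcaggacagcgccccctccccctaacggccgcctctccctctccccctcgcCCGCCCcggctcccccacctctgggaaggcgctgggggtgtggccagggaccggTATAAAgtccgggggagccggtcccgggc
IGFBP5: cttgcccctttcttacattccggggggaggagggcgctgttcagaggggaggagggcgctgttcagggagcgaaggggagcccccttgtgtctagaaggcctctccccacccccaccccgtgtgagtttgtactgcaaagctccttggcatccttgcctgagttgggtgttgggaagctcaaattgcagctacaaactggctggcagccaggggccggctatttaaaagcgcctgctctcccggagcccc
IGFBP3 holds overlapping TATANA matches at 32 and 30 bases before its start and GGGCGG matches on the opposite strand at 98 and 6 bases, and IGFBP4 holds 1 TATANA match at 29 bases and 1 GGGCGG match on the opposite strand at 83 bases. IGFBP6 holds a GGGCGG match at 17 bases before the start and no TATANA match, and IGFBP5 holds neither. Among 35116 windows of this length in the table, 17.7% hold TATANA and 42.6% hold GGGCGG. These matches are a description of letters only. A window without a match to the exact pattern may hold similar letters, such as tatttaaaa near the end of the IGFBP5 window.

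IGFBP3, which carries most circulating IGF in a complex with the acid-labile subunit, rose in both lines. In line 1 it went from 3418 and 3426 FPKM to 5309.95 and 5304 FPKM, and in line 2 from 2014 and 2047 to 2689 and 2751 FPKM. Within each line the SUPT4H1 siRNA samples lay above the control samples, but the control level of line 1 exceeded the SUPT4H1 siRNA level of line 2. The level after SUPT4H1 siRNA was 1.55 times the control level in line 1 and 1.34 times in line 2. Over both lines the log2 change was 0.53 (SE 0.05, limma adjusted p = 9.5e-05), larger in size than that of 97.8% of the genes tested. The rise was called under every alternative other than the fit without a block (adjusted p = 0.441), also without any 1 sample. In line 1 the log2 change was 0.63 (SE 0.03, adjusted p = 3.08e-06) and in line 2 it was 0.42 (adjusted p = 1.43e-05). The 2 responses differed by 0.21 on the log2 scale (adjusted p = 0.0153), a call that was lost without any 1 sample other than the line 2 controls (adjusted p up to 0.0889) and with no filter on FPKM (0.27).

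IGFBP6, which prefers IGF2 to IGF1, had a response of the same size as IGFBP3 from a lower level. It went from 142 and 149 to 234 and 233 FPKM in line 1 and from 397 and 419 to 521 and 533 FPKM in line 2. All SUPT4H1 siRNA samples of a line lay above that line's control samples, while every sample of line 2 lay above every sample of line 1. The SUPT4H1 siRNA level was 1.61 times control in line 1 and 1.29 times in line 2. The log2 change over both lines was 0.53 (SE 0.06, limma adjusted p = 2.96e-04), and was called under every alternative but the fit without a block (adjusted p = 0.622). It was 0.69 in line 1 and 0.37 in line 2 (adjusted p = 5.2e-06 and 7.56e-05). This difference between the lines, 0.32 on the log2 scale with SE 0.05, passed (adjusted p = 0.00585) and was called in each fit without 1 sample (adjusted p up to 0.0328).

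IGFBP7, a matrix-associated relative that binds IGF weakly, rose most in line 1. There it went from 47.9 and 50.1 to 69.96 and 67.7 FPKM, or by 0.48 on the log2 scale (SE 0.03, limma adjusted p = 2.1e-05). In line 2 it stood at 107 and 111 FPKM in control samples and at 116 FPKM in both SUPT4H1 siRNA samples, a log2 difference of 0.09 that did not pass (95% interval 0.02 to 0.16, adjusted p = 0.052) unless the filter was raised to a mean of 5 FPKM (0.0466). The SUPT4H1 siRNA samples of line 1 remained below the control samples of line 2. Over both lines the log2 change was 0.29 (SE 0.07, adjusted p = 0.0127, and 0.73 without the block). The lines differed in response by 0.39 on the log2 scale (adjusted p = 0.00159), which held in each fit without 1 sample. IGFBP7-AS1, an antisense gene beside it, was listed at effectively 0 in every sample.

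IGFBP5, a binding protein that also attaches to extracellular matrix, moved in opposite directions in the 2 lines. In line 1 it fell from 712 and 709 to 602 and 611 FPKM (limma log2 change -0.23, SE 0.03, adjusted p = 6.62e-04). In line 2 it rose from 725 and 749 to 813 and 838 FPKM (limma log2 change 0.16, SE 0.03, adjusted p = 0.00229). Neither line had overlapping groups, and the control samples of the lines did not differ detectably in level (log2 difference 0.05, 95% interval -0.01 to 0.12, adjusted p = 0.152). The difference between the responses was 0.39 on the log2 scale (SE 0.04, adjusted p = 0.00109, and 0.00333 to 0.00973 without 1 sample). A single value for both lines, -0.03 with adjusted p = 0.748, describes neither.

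IGFBP4, the substrate of the protease PAPPA, rose in line 1, from 877 and 886 to 993 and 1015 FPKM (log2 change 0.19, SE 0.03, limma adjusted p = 0.00236). In line 2 its control samples at 641 and 674 FPKM enclosed the SUPT4H1 siRNA samples at 662 and 666 FPKM (log2 difference 0.01, 95% interval -0.06 to 0.08, adjusted p = 0.737), and the sign turned after scaling (-0.03). Over both lines the log2 difference of 0.10 did not pass (adjusted p = 0.0761, and 0.0269 without replicate 2 of the line 2 controls). The difference between the lines was -0.17 on the log2 scale (adjusted p = 0.0442), and was lost without any 1 sample other than replicate 1 of the line 2 controls (up to 0.15), with no filter on FPKM (0.146) and without the mean-variance trend (0.0889).

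IGFBP2, which is common in fetal tissue and binds both ligands, was the only one of the 8 to fall over both lines. It stood at 6.78 and 7.58 FPKM in control samples and at 6.68 and 5.98 FPKM in SUPT4H1 siRNA samples of line 1, and at 6.33 and 5.82 against 5.44 and 4.42 FPKM in line 2. Groups did not overlap within either line, although the gap in line 1 was 0.1 FPKM. The deposited intervals, with half-widths of 11.1 to 16.0% of the value, overlapped between the groups in both lines. The log2 change was -0.21 (SE 0.06, limma adjusted p = 0.0295). This call was lost without replicate 2 of the line 1 controls (adjusted p = 0.0768), replicate 2 of SUPT4H1 siRNA in line 1 (0.0751), replicate 1 or 2 of the line 2 controls (0.0874 or 0.0559) and replicate 2 of SUPT4H1 siRNA in line 2 (0.0636), with no filter on FPKM (0.0727) and without the block (0.37). The half-widths were smaller for the other tested genes, at 0.436 to 0.567% for IGFBP5 and 4.27 to 4.99% for IGF1R.

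**Figure D2:**
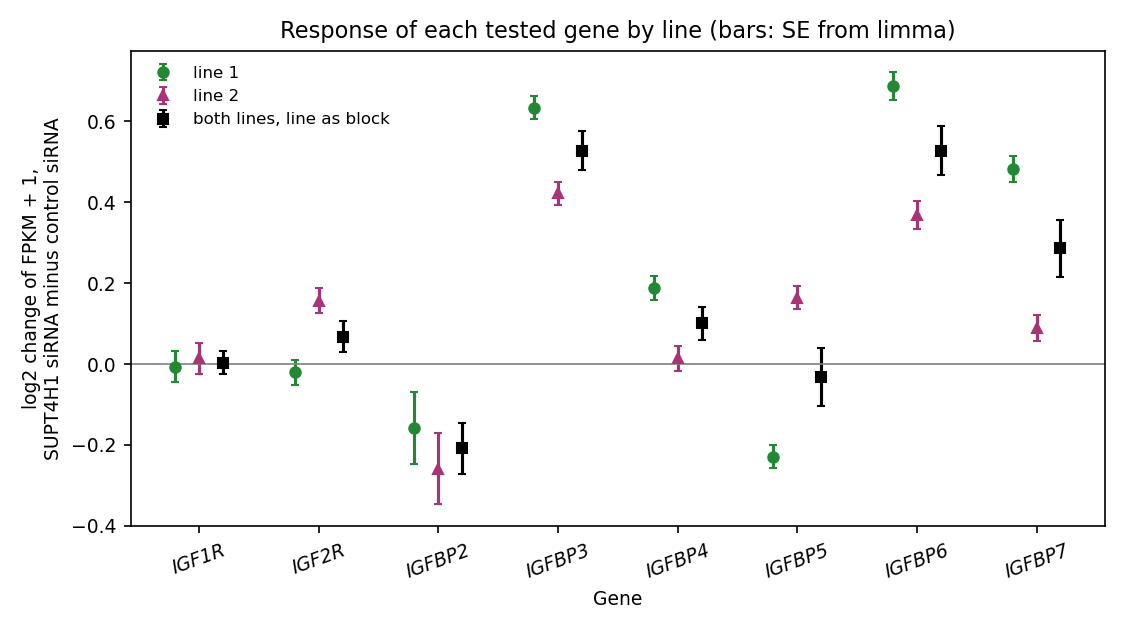
Log2 change of FPKM + 1, SUPT4H1 siRNA minus control siRNA, for the 8 tested genes in line 1 (circles), line 2 (triangles) and over both lines (squares), with SE from limma as bars. IGFBP5 lies at -0.23 in line 1 and 0.16 in line 2, while IGFBP3 and IGFBP6 lie above 0.3 in both.

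Per line, limma called 4 rises and 1 fall among the 8 genes in line 1 (IGFBP3, IGFBP4, IGFBP6 and IGFBP7 up, IGFBP5 down), where 18.2% of all genes rose and 11.2% fell (29.4% together). In line 2 it also called 4 rises and 1 fall (IGFBP3, IGFBP5, IGFBP6 and IGF2R up, IGFBP2 down), against 26.3 and 15.5% of all genes (41.8% together). The line 2 call of IGFBP2 (adjusted p = 0.0438) was lost in 6 of the 8 fits without 1 sample, the exceptions being those without replicate 2 of the line 1 controls or replicate 1 of SUPT4H1 siRNA in line 2 (up to 0.261). The line 2 call of IGFBP2 was also lost with no filter on FPKM (limma adjusted p = 0.13) and without the mean-variance trend (0.0598). Of all genes, the test of the difference between the lines called 8.87% (4.77% with the higher and 4.1% with the lower response in line 2). Among the 8 it called 6: IGF2R, IGFBP3, IGFBP4, IGFBP5, IGFBP6 and IGFBP7. Of these 6, IGFBP5, IGFBP6 and IGFBP7 were called in all 14 alternatives in which that difference was computed.

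The lines also differed before any SUPT4H1 knockdown. Under control siRNA, IGFBP6 was 2.81 times and IGFBP7 2.23 times as high in line 2 as in line 1 (log2 differences 1.49 and 1.14, limma adjusted p = 7.68e-09 and 2.13e-08). IGFBP3, IGFBP4, IGF1R and IGF2R were higher in line 1, by 1.69, 1.34, 1.29 and 1.21 times (adjusted p = 1.13e-07, 6.48e-06, 1.4e-04 and 1.44e-04). IGFBP2 and IGFBP5 did not pass (adjusted p = 0.072 and 0.152). Among all genes 23.9% were higher and 33.3% lower in line 2 (57.1% together), so 2 and 4 of 8 are not unusual counts. With 1 line on each side, this comparison describes these 2 cultures and no wider group.

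Summed over the 6 IGFBP genes, the binding protein level was 5203 and 5228 FPKM in control samples and 7216 and 7238 FPKM in SUPT4H1 siRNA samples of line 1. In line 2 the sums were 3892 and 4005 against 4808 and 4908 FPKM. In both lines the sum was higher after SUPT4H1 siRNA, and made up 1.8 and 1.79% of all FPKM in line 1 controls against 2.43 and 2.38%, and 1.33 and 1.32% in line 2 controls against 1.58 and 1.61%. IGFBP3 supplied 65.7 and 65.5% of the sum in line 1 controls and 73.6 and 73.3% after SUPT4H1 siRNA, and 51.8 and 51.1% against 55.9 and 56.0% in line 2. The share of IGFBP5 went from 13.7 and 13.6% to 8.34 and 8.44% in line 1 and from 18.6 and 18.7% to 16.9 and 17.1% in line 2. IGFBP4 took a smaller share after SUPT4H1 siRNA in both lines, 13.8 and 14.0% in line 1 and 13.8 and 13.6% in line 2, against 16.5 to 16.9% in the control samples, without a fall in its own level. These shares are descriptions and carry no test.

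**Figure D3:**
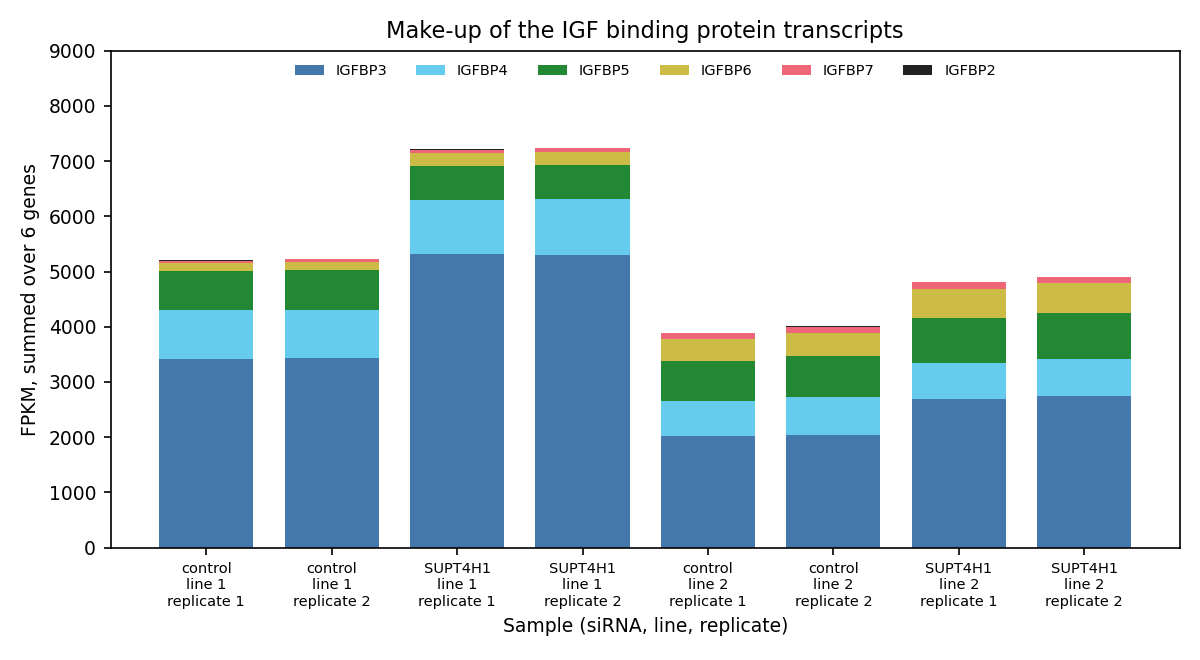
Stacked FPKM of the 6 IGF binding protein genes in each of the 8 samples. The SUPT4H1 siRNA samples reach 7216 and 7238 FPKM in line 1 and 4808 and 4908 FPKM in line 2, above the control samples of the same line, with IGFBP3 as the largest segment in every bar.

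Genes with a link to IGF availability were described from a list of 19, of which 12 passed the filter. It holds proteases, inhibitors, carriers, receptors, RNA-binding proteins and the noncoding RNA H19. Of these 3 rose and 5 fell, or 25 and 41.7%, against 26.4 and 15% of all genes, with a median log2 change of 0.01. Of the proteases tested, 3 fell over both lines and ADAM9 rose, as given further on. FURIN and CTSD did not pass over both lines (log2 differences 0.10 and 0.09, limma adjusted p = 0.0883 and 0.0607). By line, FURIN rose by 0.20 on the log2 scale in line 2 (limma adjusted p = 0.00288) and did not pass in line 1 (0.004, 0.954). CTSD rose by 0.17 in line 1 (0.00355) and did not pass in line 2 (0.02, 0.591). The line difference passed for neither gene (adjusted p = 0.0539 for FURIN and 0.0693 for CTSD). PAPPA, which cuts IGFBP4 and IGFBP5, fell from 21.7 and 21.1 to 19.2 and 18.2 FPKM in line 1 and from 18.9 and 18.7 to 13.9 FPKM in both samples of line 2 (log2 change over both lines -0.30, SE 0.05, limma adjusted p = 0.00125). ADAM12, which cuts IGFBP3 and IGFBP5, fell from 11.0 and 10.8 to 6.996 and 7.20 FPKM in line 1 and from 29.6 and 28.9 to 20.2 and 20.04 FPKM in line 2 (log2 change -0.54, SE 0.02, adjusted p = 2.89e-06). HTRA1, a secreted serine protease that cuts IGFBP5, fell from 430 and 424 to 359 and 366 FPKM and from 349 and 353 to 294 and 297 FPKM (log2 change -0.24, adjusted p = 1.19e-04). In all 3 genes the groups did not overlap within a line. Without the block none of the 12 passed with limma and 1 had an unadjusted p under 0.05, as had 2366 of the 11486 genes (adjusted p = 0.194 for PAPPA, 0.623 for ADAM12 and 0.291 for HTRA1).

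STC1 and STC2, the stanniocalcins that inhibit PAPPA, responded differently in the 2 lines. STC1 rose in line 1 from 12.6 and 12.1 to 21.3 and 19.9 FPKM (log2 change 0.69, limma adjusted p = 1.06e-05) and stood at 9.50 and 9.57 against 9.25 and 9.56 FPKM in line 2 (adjusted p = 0.745). STC2 rose in line 1 from 43.1 and 43.9 to 48.1 and 49.9 FPKM and fell in line 2 from 90.8 and 94.3 to 77.8 and 75.6 FPKM (adjusted p = 0.00483 and 2.59e-04). The line difference passed for both (adjusted p = 2.65e-04 and 0.00101) and in each fit without 1 sample, while over both lines neither passed (adjusted p = 0.0579 and 0.64). STC1 was called as a rise over both lines without either line 2 control (0.0494 and 0.0456 for replicates 1 and 2) or replicate 1 of SUPT4H1 siRNA in line 2 (0.0378), with array weights (0.041) and with a mean of at least 5 FPKM (0.0491). ADAM9, another metalloprotease, and GHR, the growth hormone receptor, rose by 0.17 and 0.15 on the log2 scale (adjusted p = 0.00573 and 0.0197), and LRP1, an endocytic receptor that also binds IGFBP3, fell by 0.14 (adjusted p = 0.0344). The LRP1 call was lost in 6 of the 8 fits without 1 sample, the exceptions being those without either SUPT4H1 siRNA sample of line 1, with adjusted p up to 0.0841, and with no filter on FPKM (0.0761). Without replicate 2 of SUPT4H1 siRNA in line 1 the log2 change of LRP1 was -0.09. GHR lost its call without replicate 2 of the line 1 controls (adjusted p = 0.0526).

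Downstream of the receptors, 38 of 40 genes of insulin and IGF receptor signalling passed the filter. Of these 19 rose and 5 fell, or 50 and 13.2%, against 26.4 and 15% of all genes, with a median log2 change of 0.07. With median-ratio scaling 14 rose and 5 fell, where 2302 and 2288 of the 11486 genes did, and without the block 3 rose and 2 fell, where 3.53 and 1.73% of all genes did. All 3 genes of the regulatory subunits of class I PI3 kinase in the list rose: PIK3R1 from 17.1 ± 0.65 to 24.1 ± 1.58 FPKM (SD, n = 4), PIK3R2 from 22.1 ± 1.16 to 30.8 ± 3.11 FPKM and PIK3R3 from 0.98 ± 0.37 to 1.73 ± 0.69 FPKM, with log2 changes of 0.47, 0.46 and 0.44 (limma adjusted p = 1.64e-04, 2.62e-05 and 0.00134). PIK3R3 stood near 1 FPKM, where the added 1 makes a log2 change come out too small. Over the alternatives its log2 change was 0.40 to 0.74. PIK3R1 and PIK3R2 also passed without the block (limma adjusted p = 0.00547 and 0.017), and PIK3R3 did not (0.289). RPS6KB2, an S6 kinase, rose by 0.20 on the log2 scale (limma adjusted p = 0.00354, and 0.411 without the block).

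EIF4EBP1, the translation repressor that mTORC1 phosphorylates, fell from 39.6 and 41.4 to 30.8 and 30.9 FPKM in line 1 and from 41.3 and 42.8 to 24.97 and 23.7 FPKM in line 2. Its log2 change was -0.57 (SE 0.07, limma adjusted p = 4.29e-04, and 0.0154 without the block). The fall was larger in line 2, with a difference of -0.39 on the log2 scale (adjusted p = 0.0027). The insulin receptor gene INSR stood at 2.16 ± 0.08 and 1.97 ± 0.22 FPKM (SD, n = 4) and did not pass over both lines (log2 difference -0.09, limma adjusted p = 0.102). In line 2 INSR fell by 0.16 on the log2 scale (adjusted p = 0.036), and in line 1 it did not pass (-0.03, 0.688). Its line difference did not pass (adjusted p = 0.335). The adaptor genes IRS1, at 12.1 ± 2.13 and 12.5 ± 3.07 FPKM (SD, n = 4), and IRS2, at 5.86 ± 0.33 and 5.87 ± 0.60 FPKM, did not pass over both lines (limma adjusted p = 0.468 and 0.996). By line, IRS2 fell by 0.16 on the log2 scale in line 1 (adjusted p = 0.0249) and rose by 0.16 in line 2 (0.0184), and IRS1 rose by 0.12 in line 1 (0.0186). The line 1 calls of both genes were lost without either line 1 control or without replicate 1 of SUPT4H1 siRNA in line 1 (up to 0.133 for IRS2 and 0.0897 for IRS1), and that of IRS2 also with no filter on FPKM (0.0537). The line 2 call of IRS2 was lost without replicate 2 of the line 2 controls (0.0941) or replicate 1 of SUPT4H1 siRNA in line 2 (0.114) and after scaling (0.0567). IRS1 did not pass in line 2 (adjusted p = 0.229), but fell there after scaling (0.0415).

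Of 18 genes known to be induced by FOXO factors, which AKT signalling holds out of the nucleus, 13 passed the filter, 6 rose and 4 fell, or 46.2 and 30.8%, against 26.4 and 15% of all genes, with a median log2 change of 0.05. PDK4, a kinase that restrains pyruvate use, had the largest rise, from 4.42 and 4.54 to 6.85 and 6.12 FPKM in line 1 and from 0.816 and 0.830 to 4.47 and 4.38 FPKM in line 2 (log2 change 1.01, SE 0.20, limma adjusted p = 0.00389, and 0.228 without the block). The SUPT4H1 siRNA samples of line 2 lay at the level of the line 1 controls. SESN1, a stress-induced regulator of mTORC1, rose from 14.6 ± 1.48 to 19.2 ± 1.43 FPKM (SD, n = 4; adjusted p = 2.41e-05, and 0.0395 without the block), and PIK3IP1, an inhibitor of PI3 kinase, rose by 0.27 on the log2 scale (adjusted p = 0.00341). TXNIP, a thioredoxin-binding protein, BCL6, a transcriptional repressor, and CCNG2, an atypical cyclin, fell by 0.31, 0.22 and 0.18 (limma adjusted p = 2.81e-04, 2.45e-04 and 0.0115). Without the block BCL6 passed (adjusted p = 0.0115), and TXNIP, CCNG2 and PIK3IP1 did not (0.486, 0.393 and 0.175). CCNG2 did not pass in line 1 (log2 difference -0.08, adjusted p = 0.145) and fell by 0.29 in line 2 (2.99e-04). This list had calls in both directions.

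**Figure D4:**
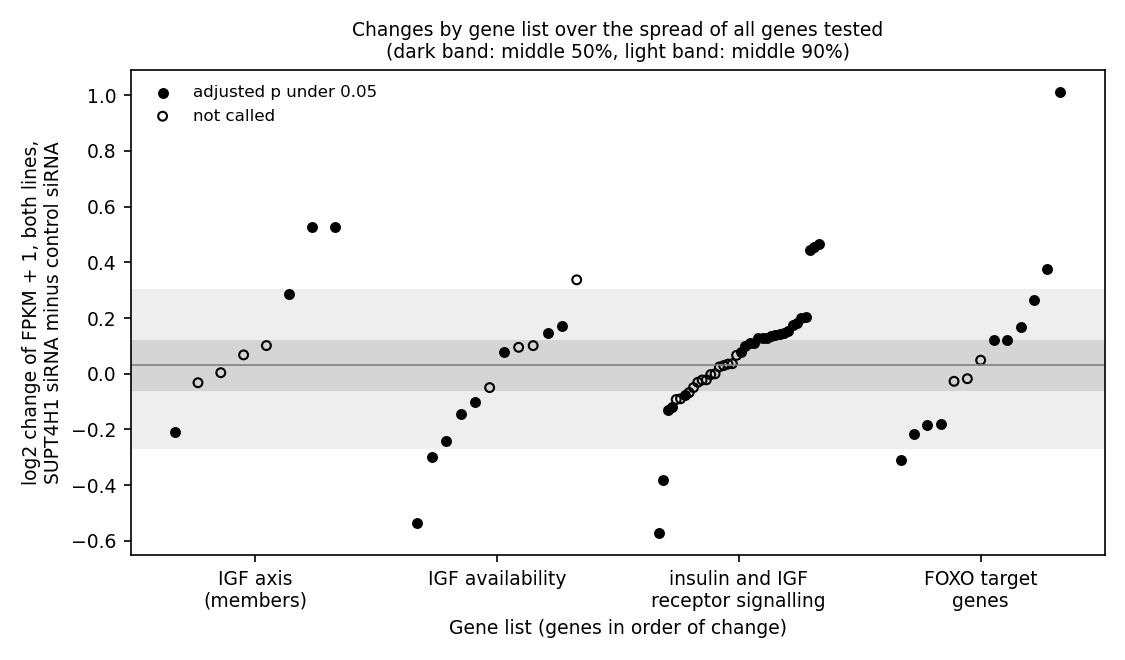
Log2 change over both lines for each tested gene of the IGF axis and of 3 pathway lists, filled where limma's adjusted p was under 0.05. Bands show the middle 50% (-0.06 to 0.12) and middle 90% (-0.27 to 0.30) of all 11486 genes tested; IGFBP3 and IGFBP6 at 0.53 lie above both bands.

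The pattern over the 8 samples most like that of IGFBP6 was shown by HSPB1, a small heat shock protein gene, PRMT2, an arginine methyltransferase gene, and MMP24-AS1 (Pearson r of log2(FPKM + 1) across samples 0.998, 0.997 and 0.996). For IGFBP3 the closest were TKT, which encodes transketolase, PRIM1, a DNA primase subunit gene, and CYBRD1, a ferric reductase gene (0.998, 0.998 and 0.998). The 8 points come from 2 lines that differ in level, a step that all these genes share.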

How the data were processed

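The authors deposited 1 table per sample with FPKM per gene, bounds of an interval and a status. Coordinates are hg19, per the submitters' processing notes. Not given in the sources used here are the aligner, the quantification tool, the annotation, any use of strand and the number of fragments. From the width of the deposited intervals, depths lay between 0.836 and 1.11 times that of the first control library of line 1. FPKM are relative values and summed to 288293 to 305680 per sample. How the authors made the intervals is not stated, and they do not hold the spread between samples.

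Rows of 1 symbol were summed (129 of the genes tested had several), and genes with a mean of at least 1 FPKM and status OK in every sample were tested, 11486 in all; 12 genes of that level were left out for their status. limma 3.58.1 in R 4.3.3 fitted log2(FPKM + 1) and modelled the trend of variance with mean; p-values are 2-sided, adjusted over all genes tested (Benjamini-Hochberg, threshold 0.05). The main fit had the line as block. The lines pair the groups, since samples of 1 line share their cells (within a line, deviations from the mean of each siRNA correlated at 0.713 to 0.81). Responses by line, their difference and the difference between control groups came from 4 group means. On simulated data of 11486 genes for the fit over both lines, 98% of changes of 0.5 and 99% of changes of 1 (log2) were recovered. There 100 genes were changed by each size, alike in both lines. Smaller changes and changes that differ between the lines were not simulated, so these rates do not apply to them. Sequences are RefSeq's. Tables were read with pandas 2.3.3 in Python 3.11.15 and drawn with matplotlib 3.10.9. Alternatives were the fit without a block, a block by replicate number, other pseudocounts and filters, median-ratio scaling, no trend, array weights, repeated symbols left out, and each sample left out.

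The members and lists were chosen with earlier results of these data known. Named were all members, SUPT4H1, INSR, IRS1, IRS2, PAPPA, STC1 and STC2, and the called genes with the largest change in each list (up to 6). For the 2 members of largest change the 3 genes of highest correlation were also named. H19, CD14, FURIN and CTSD were added after their values were seen. A gene that this rule names is not reported here.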

Additional observations from a re-analysis of the deposited data

Results flagged for a closer look

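The responses of 17 named genes differed between the lines by the test of the difference itself (limma on 4 group means, line 2 response minus line 1 response, log2 scale). Among the members these were IGF2R (0.18), IGFBP3 (-0.21), IGFBP4 (-0.17), IGFBP5 (0.39), IGFBP6 (-0.32) and IGFBP7 (-0.39). Among the pathway genes the values were -0.71 for STC1, -0.43 for STC2, -0.39 for EIF4EBP1, 1.13 for PDK4, 0.32 for IRS2, -0.17 for IRS1, -0.23 for PAPPA, -0.17 for ADAM9, 0.23 for PIK3R1, 0.25 for PIK3IP1 and -0.22 for CCNG2.

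The calls of IGFBP5, IGFBP6, IGFBP7, STC1, STC2, EIF4EBP1 and PDK4 held in each fit without 1 sample. Those of IRS1, ADAM9 and CCNG2 did not survive leaving out any 1 sample (adjusted p up to 0.137, 0.118 and 0.119). PAPPA kept its call only without replicate 2 of SUPT4H1 siRNA in line 1, PIK3R1 only without replicate 1 of it, and PIK3IP1 only without replicate 1 of the line 1 controls or replicate 2 of the line 2 controls (adjusted p otherwise up to 0.0839, 0.0955 and 0.101). IRS2 lost its call without either line 1 control, replicate 2 of the line 2 controls or replicate 1 of SUPT4H1 siRNA in line 2 (up to 0.0646).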

How the results depend on the processing

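Without the replicate block by line, limma called 405 rises and 199 falls among all genes, 0 and 0 among the members, 0 and 0 in the IGF availability list, 3 and 2 in the signalling list and 1 and 1 among FOXO targets. Of 23 named genes called over both lines, 7 were also called in that fit, and 20 were called under every other alternative. Whether replicate numbers pair the samples cannot be told from these data. For like numbers, deviations from the group means correlated at 0.196 in line 1 and 0.0846 in line 2. With 2 replicates a group, unlike numbers must give the same value with the opposite sign. With a replicate block by line and number, 1 gene of the IGF availability list rose, not 3, and GHR lost its call (adjusted p = 0.0564). Median-ratio scaling turned the sign of IGF1R over both lines (-0.028) and in line 2 (-0.022) and of IGFBP4 in line 2 (-0.027), none of them called. Scaling moved the median log2 change over all genes tested from 0.03 to 6.1e-04. The cause of that general shift was not tested.

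With 1 sample left out, 0 to 1 members fell over both lines (3 to 4 rose), and 518 to 770 genes differed in response between the lines, against 1019 with all 8 samples, on fewer samples. Values that changed sign, none of them called, ranged from -0.0094 to 0.021 for IGF1R over both lines, -0.044 to 0.031 in line 1, -0.00097 to 0.029 in line 2 and -0.017 to 0.058 for its line difference. The line difference of IGFBP2 ranged from -0.23 to 0.023. IGFBP4 in line 2 ranged from -0.021 to 0.0497 and IGFBP5 over both lines from -0.081 to 0.011. IRS2 over both lines ranged from -0.047 to 0.047, STC2 from -0.10 to 0.0042 and STC1 in line 2 from -0.0398 to 0.0039. The deposited intervals reached 0 in 6 of 8 samples for IGF1 and in 4 of 8 for IGF2.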
